A study of Mus musculus with 12 samples.

Results

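The 10 genes described here encode heat shock proteins and chaperones, and were taken as the rows of the expression table whose gene symbol was Hspa1a, Hspa1b, Hspb1, Dnajb1, Hsph1, Hspa8, Hsp90aa1, Hspa5, Hspe1 or Hspd1. Each symbol matched 1 row, giving 10 of the 24490 genes in the table. The samples were dorsal root ganglia (DRG), which hold the cell bodies of sensory neurons, from adult C57Bl/6 mice, for which the labels name no transgene or treatment. There were 4 samples in each of 3 groups. Intact ganglia came from 1 mouse per sample and were snap-frozen whole. Unsorted samples pooled the ganglia of 2 mice, which were digested with dispase, collagenase and DNAse for 30 min at 37 °C, triturated and passed through a 40 µm filter. MACS-sorted samples pooled 8 mice and went through the same dissociation, followed by magnetic cell sorting (MACS), in which a biotinylated antibody cocktail against non-neuronal cells was applied for 5 min at 4 °C, anti-biotin beads for 10 min at 4 °C, and a column retained the labelled cells. Intact and dissociated samples therefore differed both in handling and in the number of mice pooled, and these cannot be told apart. The same holds for MACS-sorted and unsorted samples, which differed in sorting and in the number of mice pooled.

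Chaperones bind unfolded or partly folded proteins and prevent them from aggregating. Constitutive members work in every cell, whereas inducible members are transcribed within minutes of heat, oxidative or proteotoxic stress, when heat shock factor 1 is released from chaperones, forms trimers and binds heat shock elements in their promoters. Those elements are inverted repeats of the unit GAA separated by a pair of bases. Chaperones of the endoplasmic reticulum and the mitochondrion can also answer to other pathways, the unfolded protein responses of those organelles. In sensory neurons Hspb1 is known for its high constitutive expression and for its link to axon survival.

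Promoters are shown for 4 of the genes. Hspa1a, Hspa1b and Hspb1 are shown because they differed most, of the 10, between unsorted and intact samples. Hspe1 is shown because, together with Hspd1, it carries the longest run of heat shock element units of the group. Its level did not pass the test in any comparison. Each is the 250 bases before the RefSeq start site, in the GRCm38.p6 assembly, 5′ to 3′ on the gene's own strand. Capitals mark pairs of heat shock element units, head to head (GAANNTTC) or tail to tail (TTCNNGAA), with overlapping pairs run together.
Hspa1a, chr17:34972157-34972406, minus strand: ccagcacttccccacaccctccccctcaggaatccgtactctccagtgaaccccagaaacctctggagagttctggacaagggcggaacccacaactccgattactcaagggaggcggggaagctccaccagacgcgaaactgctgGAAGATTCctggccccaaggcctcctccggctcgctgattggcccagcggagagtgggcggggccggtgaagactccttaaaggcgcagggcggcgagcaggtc
Hspa1b, chr17:34959239-34959488, minus strand: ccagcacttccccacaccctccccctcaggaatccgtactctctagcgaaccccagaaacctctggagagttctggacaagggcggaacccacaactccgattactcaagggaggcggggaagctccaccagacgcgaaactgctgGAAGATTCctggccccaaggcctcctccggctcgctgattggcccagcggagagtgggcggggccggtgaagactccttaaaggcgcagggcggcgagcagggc
Hspb1, chr5:135887669-135887918, plus strand: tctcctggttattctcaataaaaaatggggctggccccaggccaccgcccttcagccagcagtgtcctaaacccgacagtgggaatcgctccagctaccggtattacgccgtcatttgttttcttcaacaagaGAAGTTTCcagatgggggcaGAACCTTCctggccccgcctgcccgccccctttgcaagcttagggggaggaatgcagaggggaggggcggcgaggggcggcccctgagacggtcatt
Hspe1, chr1:55087898-55088147, plus strand: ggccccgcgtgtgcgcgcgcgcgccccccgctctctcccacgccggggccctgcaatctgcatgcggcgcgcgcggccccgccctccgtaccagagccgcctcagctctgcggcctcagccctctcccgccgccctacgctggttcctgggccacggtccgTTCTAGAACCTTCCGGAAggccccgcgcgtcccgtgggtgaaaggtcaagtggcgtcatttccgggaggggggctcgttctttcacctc

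The Hspa1a and Hspa1b windows were 98.8% identical and differed by 3 substitutions, C44T, T47C and T249G, counted from 1 at the 5′ end with the Hspa1a base first, so that both carried the same pair 104 bases before the start site. Hspb1 held 2 pairs, at 117 and 97 bases before its start. The table held promoters for 8 of the 10 genes, without Hspa8 and Hsp90aa1. Of these 8, 6 held a pair in either orientation, compared with 12.8% of all 32817 promoters in the table. GAANNTTC stood in 5 of the 8 and in 6.69% of all promoters, and TTCNNGAA in 3 of the 8 and in 7.16% of all, both motifs being their own reverse complement. The sixth was Hsph1, with a tail-to-tail pair 54 bases before its start. Hspe1 and Hspd1 are divergent neighbours on chromosome 1 with start sites 215 bases apart, so their windows covered the same DNA and held the same 4 units in a row. Triples of units were found in no other of these promoters and in 0.466% of all promoters. Dnajb1, not shown although it was called higher in MACS-sorted against intact samples by the criteria given below, had no pair in its window. Hspa5, a target of the unfolded protein response, had no pair either, but held an endoplasmic reticulum stress element 65 bases before its start, which 0.113% of all promoters held, and 4 CCAAT boxes. A CCAAT box, on either strand, stood in 5 of the 8 and in 33.8% of all promoters, and the TATA box motif TATAAA in 0 of the 8 and in 12.4% of all. Only exact matches to TATAAA were counted, so other forms of a TATA box were not. The Hspa5 window held the string tatataa. These matches describe letters in a window of sequence. They were not tests of binding.

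Levels are given in FPKM, fragments counted relative to transcript length and to the mapped total of the library, which allows genes to be set side by side. In intact ganglia a pair of cytosolic chaperones was highest. Hspa8, the constitutive Hsp70 that folds new proteins and uncoats clathrin vesicles, had a mean of 194 FPKM, and Hsp90aa1, the inducible cytosolic Hsp90, which matures kinases and receptors, had 161 FPKM. Hspa5, the Hsp70 of the endoplasmic reticulum lumen also called BiP, followed at 103 FPKM, then Hsph1, an Hsp110 that recharges Hsp70 with ATP, at 73.1 FPKM and Hspb1, a small heat shock protein that holds unfolded proteins, at 48.0 FPKM. The mitochondrial chaperonin Hspd1 (Hsp60) stood at 39.0 FPKM and its lid Hspe1 (Hsp10) at 31.9 FPKM, and Dnajb1, an Hsp40 that delivers substrates to Hsp70, stood at 18.5 FPKM. The inducible Hsp70 genes Hspa1b and Hspa1a were lowest, at 2.93 and 1.81 FPKM. In intact samples the ranges of neighbours in this order did not overlap, with the exception of Hspe1, whose range of 21.8 to 53.8 FPKM took in that of Hspd1. In unsorted samples the ranges of Hsph1 and Hspb1, of Dnajb1 and Hspe1, and of Hspa1b and Hspa1a overlapped, and in MACS-sorted samples those of Hspa8 and Hsp90aa1, and of Dnajb1 and Hspe1.

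**Figure D1:**
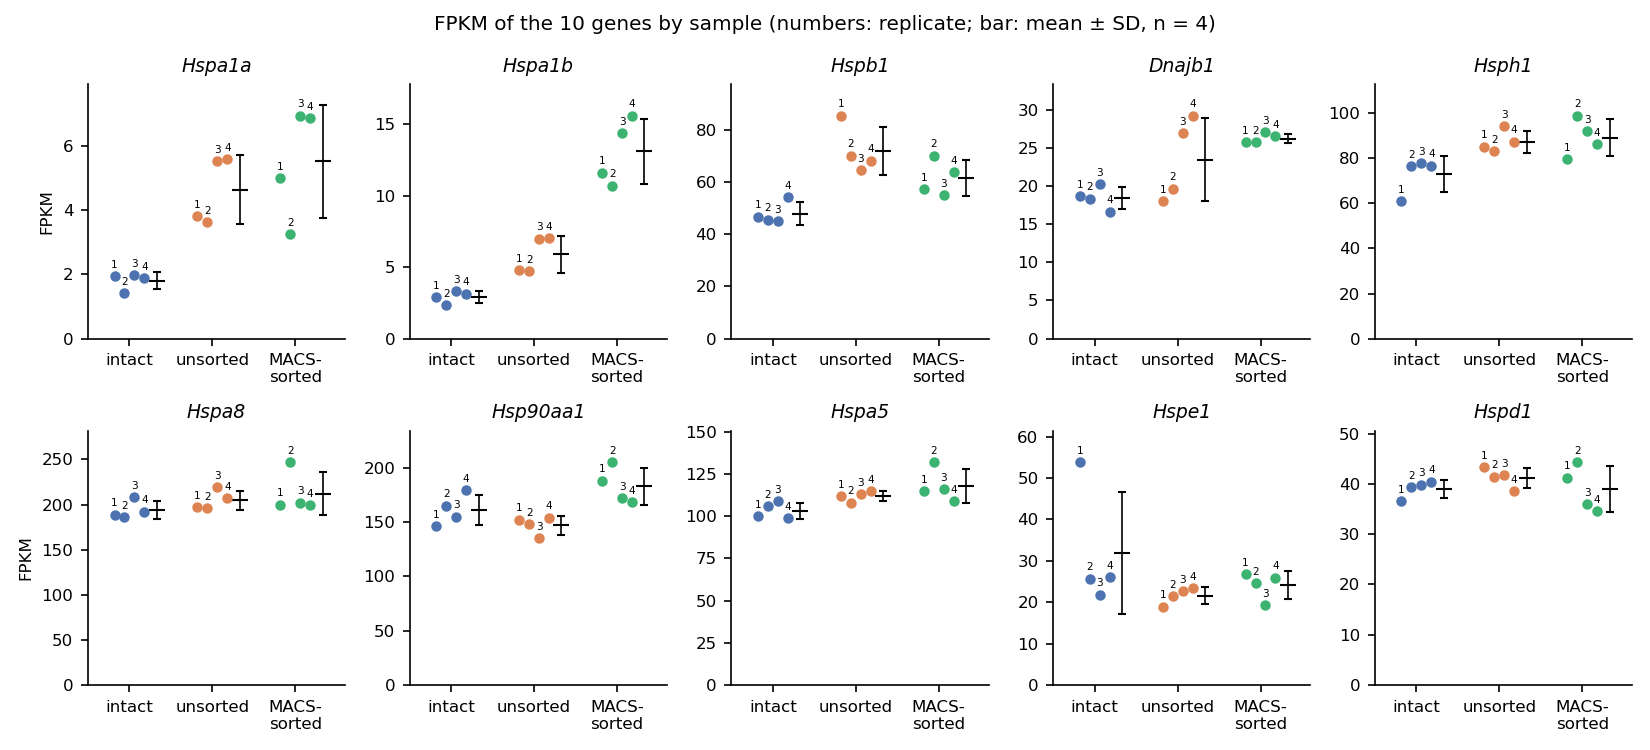
FPKM (linear axis from 0, with a separate scale in each panel) of each of the 10 genes in intact, unsorted and MACS-sorted samples; each point is a sample, numbered by replicate, and bars give the mean ± SD of 4. Hspa1b separates all 3 groups (2.33 to 3.33, 4.73 to 7.04 and 10.7 to 15.6 FPKM), while the ranges of Hspa8, Hspa5 and Hspd1 overlap between each pair of groups.

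The libraries were not alike in other ways. From the step size of low FPKM values, and assuming fragments of 150 bases, they held an estimated 13440000 to 19340000 fragments, which gives 72 to 334 fragments for Hspa1a, 113 to 651 for Hspa1b and 8086 to 12113 for Hspa8. Intact replicate 1 had 3023 FPKM summed over 8 skeletal muscle markers, against 15.8 to 69.0 in the other intact samples, and differed from them by a median of 0.311 to 0.358 on the log2 scale, where the others differed by 0.065 to 0.083. Unsorted replicates 1 and 2 differed by a median of 0.037, less than any other pair of samples in a group. The 8 red blood cell markers, summed, reached 1681 to 15368 FPKM in MACS-sorted samples, against 112 to 399.6 FPKM in unsorted and 266 to 737 FPKM in intact samples, and haemoglobin took 0.681% to 7.13% of all FPKM there. The summed 6 satellite glia markers were at 1533 to 1828 FPKM in intact, 1999.7 to 2546 FPKM in unsorted and 7.37 to 77.6 FPKM in MACS-sorted samples. The 8 pan-neuronal markers summed to 3621 to 3985, 4352 to 4716 and 4407 to 5775 FPKM in the same order, and none of them was at 0 in any group. They did not move together. In MACS-sorted against unsorted samples 2 of the 8 were called higher, beside 8.15% of all genes, by the criteria given below. There 1 was called lower, Snap25, with means of 605 FPKM in unsorted and 314 FPKM in MACS-sorted samples, beside 12.5% of all genes. Summed markers of Schwann cells were at 1916 to 3159.8 FPKM in unsorted and 518 to 1198 FPKM in MACS-sorted samples, beside 2488 to 4508 FPKM in intact samples. Those of fibroblasts were at 496 to 942, 168 to 337 and 7.62 to 32.4 FPKM in intact, unsorted and MACS-sorted samples, and those of macrophages at 29.3 to 61.9, 8.82 to 18.9 and 0.608 to 2.20 FPKM. The 6 endothelial markers were at 20.2 to 23.7 FPKM in intact and 38.2 to 50.5 FPKM in unsorted samples, with no overlap, and at 11.4 to 68.1 FPKM in MACS-sorted samples. In unsorted against intact samples, where Hspa1a and Hspa1b were higher, 4 of 6 satellite glia and 4 of 6 endothelial markers were also called higher, and 5 of 6 fibroblast and 3 of 6 macrophage markers lower, by the criteria given below. Of all genes 4.29% were called higher and 2.76% lower there. The satellite glia marker Fabp7 was not higher, with means of 284 FPKM in intact and 263 FPKM in unsorted samples. The part of these differences in the results for the chaperone genes was not tested, and in bulk samples fewer cells of a type and less RNA per cell cannot be told apart.

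The comparison of unsorted with intact samples sets dissociated ganglia against whole ones, which also differed in the mice pooled and in the cell type markers above. The inducible Hsp70 genes Hspa1a and Hspa1b and the small heat shock protein gene Hspb1 were higher in unsorted samples. The other 7 of the 10 genes, Dnajb1, Hsph1, Hspa8, Hsp90aa1, Hspa5, Hspe1 and Hspd1, did not pass the test. A gene was called when the adjusted p from limma, over all genes tested, was under 0.05, the means of the groups had a log2 ratio beyond 0.5 and the mean was above 5 FPKM in the higher group. By these criteria 2 of the 10 genes were higher and 0 lower, and 4.29% of the 12392 genes tested were called higher and 2.76% lower. On the adjusted p alone 3 of the 10 were higher and 0 lower, against 14.8% and 7.79% of all genes. In 4 of the 10 the unsorted values were all above the intact ones, against 20.8% of all genes. The median log2-fold change of the 10 was 0.19, beside 0.01 over all genes tested.

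Hspa1b was at 2.90, 2.33, 3.33 and 3.14 FPKM in the intact samples and at 4.79, 4.73, 7.00 and 7.04 FPKM in the unsorted samples. Every unsorted sample was above every intact one. The mean rose 2.01-fold, from 2.93 ± 0.431 to 5.89 ± 1.31 FPKM (SD, n = 4), a log2-fold change of 0.97 (standard error 0.170, limma adjusted p = 0.0068). Hspa1a, encoding a nearly identical protein, was at 1.95, 1.41, 1.97 and 1.89 FPKM in intact and at 3.83, 3.63, 5.55 and 5.60 FPKM in unsorted samples. The groups again did not overlap. Its mean was 2.58 times as high, with a log2-fold change of 1.30 (standard error 0.178, limma adjusted p = 0.0029), and it was not called only because its unsorted mean of 4.65 FPKM was under the limit of 5. It ranked 51st from the top by log2-fold change among all genes tested, and Hspa1b 103rd. Within the unsorted group replicates 3 and 4 were above replicates 1 and 2 for both genes.

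Hspb1 was at 46.8, 45.7, 45.0 and 54.4 FPKM in intact and at 85.6, 70.2, 64.7 and 68.3 FPKM in unsorted samples. The groups did not overlap, and the means differed 1.51-fold, with a log2-fold change of 0.59 (standard error 0.103, limma adjusted p = 0.0069). Unsorted replicate 1 was the highest. Without it the log2-fold change was 0.50 (limma adjusted p = 0.017) and the gene was no longer called.

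Dnajb1 was at 18.7, 18.4, 20.3 and 16.7 FPKM in intact and at 18.1, 19.7, 27.0 and 29.3 FPKM in unsorted samples, so that only unsorted replicates 3 and 4 stood above the intact range. The difference of 0.32 on the log2 scale did not pass the test (95% confidence interval -0.03 to 0.67, limma adjusted p = 0.17). Hsph1 was at 60.9, 76.6, 77.9 and 76.8 FPKM in intact and at 85.3, 83.1, 94.4 and 87.4 FPKM in unsorted samples. These groups did not overlap, but the log2-fold change of 0.27 did not pass (95% interval 0.06 to 0.48, limma adjusted p = 0.071). Intact replicate 1, the sample rich in muscle transcripts, was the lowest, and without it the change was 0.18 with an adjusted p of 0.024.

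The cytosolic chaperones of highest level did not pass the test either. The log2-fold change was 0.08 for Hspa8 (95% interval -0.08 to 0.23) and -0.13 for Hsp90aa1 (-0.32 to 0.05), with limma adjusted p of 0.44 and 0.27. It was 0.12 for Hspa5 (-0.02 to 0.26) and 0.08 for Hspd1 (-0.07 to 0.23), with limma adjusted p of 0.20 and 0.41. Hspe1 was at 53.8, 25.7, 21.8 and 26.1 FPKM in intact and at 18.9, 21.4, 22.7 and 23.4 FPKM in unsorted samples. Its log2-fold change of -0.47 (95% interval -1.03 to 0.09, limma adjusted p = 0.20) rested on intact replicate 1, without which it was -0.19 (adjusted p = 0.14).

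**Figure D2:**
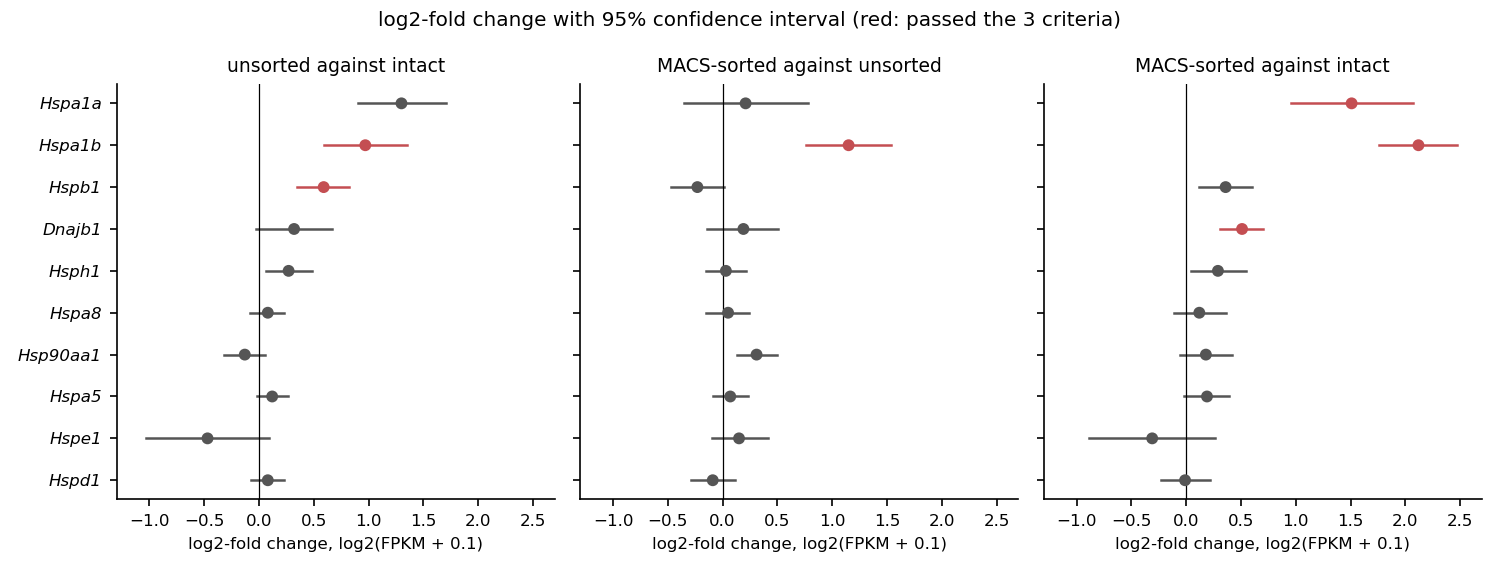
Log2-fold change on the log2(FPKM + 0.1) scale, with its 95% confidence interval from limma, of the 10 genes in the 3 comparisons of 4 samples with 4; red marks genes that passed the 3 criteria. Hspa1b is red in each panel, Hspa1a only in the third although its interval of 0.90 to 1.71 in the first lies above 0, and the intervals of Hspa8, Hspa5 and Hspd1 include 0 in each.

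The comparison of MACS-sorted with unsorted samples is the one from which the study defined nociceptor genes. It sets a preparation enriched in small nociceptive neurons against dissociated ganglia that hold these neurons too, beside other neurons and non-neuronal cells. The study found red blood cells in its sorted samples and removed blood genes, which was not done for the calls given here. This comparison shares the unsorted samples with the one above. Hspa1b was higher again after sorting, and the other 9 genes were not called. That made 1 of 10 called higher and 0 lower, against 8.15% and 12.5% of the 12038 genes tested. On the adjusted p alone 2 of the 10 were higher and 0 lower, against 18.8% and 27.7% of all genes. In 2 the MACS-sorted values were all above the unsorted ones and in 0 all below, against 18.4% and 27.8%. The median log2-fold change of the 10 was 0.11, beside -0.04 over all genes.

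Hspa1b reached 11.6, 10.7, 14.4 and 15.6 FPKM in the MACS-sorted samples, all above the highest unsorted value of 7.04 FPKM. The mean of 13.1 ± 2.29 FPKM (SD, n = 4) was 2.22 times the unsorted mean, a log2-fold change of 1.15 (standard error 0.174, limma adjusted p = 4.9e-04). Hspa1a was at 5.01, 3.26, 6.96 and 6.89 FPKM, a range that included all of the unsorted values. Its log2-fold change of 0.21 did not pass (95% interval -0.35 to 0.78, limma adjusted p = 0.52). MACS-sorted replicates 3 and 4, with 5.14% and 7.13% of FPKM in haemoglobin, had the highest values of both genes, and without them the log2-fold change was 0.94 for Hspa1b (adjusted p = 0.0058) and -0.17 for Hspa1a (adjusted p = 0.59).

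Hsp90aa1 was at 152, 148, 135 and 154 FPKM in unsorted and at 188, 205, 172 and 168 FPKM in MACS-sorted samples. The groups did not overlap and the log2-fold change of 0.31 passed the adjusted p (standard error 0.0829, limma adjusted p = 0.011) but not the limit on the ratio of means, which were 1.25-fold apart. Hspb1, at 57.4, 70.2, 55.0 and 63.8 FPKM after sorting, overlapped the unsorted range and had a log2-fold change of -0.23 (95% interval -0.47 to 0.01, limma adjusted p = 0.11). Dnajb1 was at 25.8, 25.8, 27.1 and 26.6 FPKM after sorting, a coefficient of variation of 2.41% against 23.2% in unsorted samples, with a log2-fold change of 0.19 (95% interval -0.14 to 0.51, limma adjusted p = 0.31). Hsph1, Hspa8, Hspa5, Hspe1 and Hspd1 had log2-fold changes of -0.09 to 0.15, with limma adjusted p of 0.29 to 0.81. MACS-sorted replicate 2 had the highest Hspa8, Hsp90aa1, Hspa5, Hsph1 and Hspd1 of its group.

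The comparison of MACS-sorted with intact samples spans dissociation and sorting together and shares its samples with both comparisons above. Hspa1a, Hspa1b and Dnajb1 were called higher, 3 of 10, and 0 were lower, against 7.54% and 10.7% of the 12234 genes tested. On the adjusted p alone 4 of the 10 were higher and 0 lower, against 14.1% and 20.6% of all genes. In 5 every MACS-sorted value was above every intact one and in 0 below, against 15.6% and 21.9%. The median log2-fold change of the 10 was 0.24, beside -0.04 over all genes.

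Hspa1b was 4.47-fold higher in the MACS-sorted than in the intact mean (log2-fold change 2.12, standard error 0.158, limma adjusted p = 1.6e-05) and Hspa1a 3.06-fold higher (1.51, standard error 0.246, limma adjusted p = 0.0012). Dnajb1 was 1.42-fold higher, with the 4 MACS-sorted values between 25.8 and 27.1 FPKM and the 4 intact values between 16.7 and 20.3 FPKM (log2-fold change 0.51, standard error 0.0861, limma adjusted p = 0.0016). Its ratio was only just beyond the limit of 0.5, and without MACS-sorted replicate 3 or intact replicate 4 the change was 0.49 or 0.46 and was not called. Without MACS-sorted replicates 3 and 4, the samples rich in haemoglobin, Hspa1b alone of the 10 was called. Hspa1a then had a log2-fold change of 1.13 (limma adjusted p = 0.011) with a mean under 5 FPKM, and Dnajb1 one of 0.48 (adjusted p = 0.017). Hspb1 was higher in each MACS-sorted sample than in any intact one, with a log2-fold change of 0.36 that passed the adjusted p but not the limit on the ratio (standard error 0.107, limma adjusted p = 0.027). Hsph1 did not overlap either, at 79.7 to 99.0 FPKM against 60.9 to 77.9 FPKM, and its change of 0.29 did not pass (limma adjusted p = 0.072). Hspa8, Hsp90aa1, Hspa5, Hspe1 and Hspd1 had log2-fold changes of -0.31 to 0.19, with limma adjusted p of 0.15 to 0.96.

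Hspa1a and Hspa1b lie in tandem on the minus strand of chromosome 17, at 34969359 to 34972156 and 34956429 to 34959238 in the mm10 coordinates of the table, with 10120 bases between them. They are near-identical copies. Of the stretches of 100 bases, the read length, in the Hspa1a transcript, 48.6% also occur in another transcript, nearly all in Hspa1b, and 49.9% of those of Hspa1b occur in Hspa1a. Reads from such stretches cannot be assigned to 1 gene, so the level of each taken alone is uncertain, and their sum is given as an alternative. The sum is not free of shared reads, as 134 stretches of Hspa1a and 89 of Hspa1b also occur in Hspa1l. How the quantification divided shared reads is not given in the sources used here. The sum was 4.73 ± 0.686 FPKM in intact, 10.5 ± 2.37 FPKM in unsorted and 18.6 ± 3.99 FPKM in MACS-sorted samples (SD, n = 4), with no overlap between groups. With both genes joined into 1 row, the log2-fold change was 1.12 for unsorted against intact (limma adjusted p = 0.0041), 0.82 for MACS-sorted against unsorted (0.0060) and 1.94 for MACS-sorted against intact (3.7e-05), and each was called.

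The ratio of Hspa1b to Hspa1a was 1.49, 1.66, 1.69 and 1.66 in the intact samples, 1.25, 1.30, 1.26 and 1.26 in the unsorted samples and 2.32, 3.29, 2.07 and 2.26 in the MACS-sorted samples. The 3 groups did not overlap. This ratio was looked at after the values of both genes were seen and is given as a description, with no test. The annotation also places the gene Gm20481 on the opposite strand over 2225 bases of the Hspa1a locus. The library kit kept strand, but whether the quantification used strand is not given in the sources used here.

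**Figure D3:**
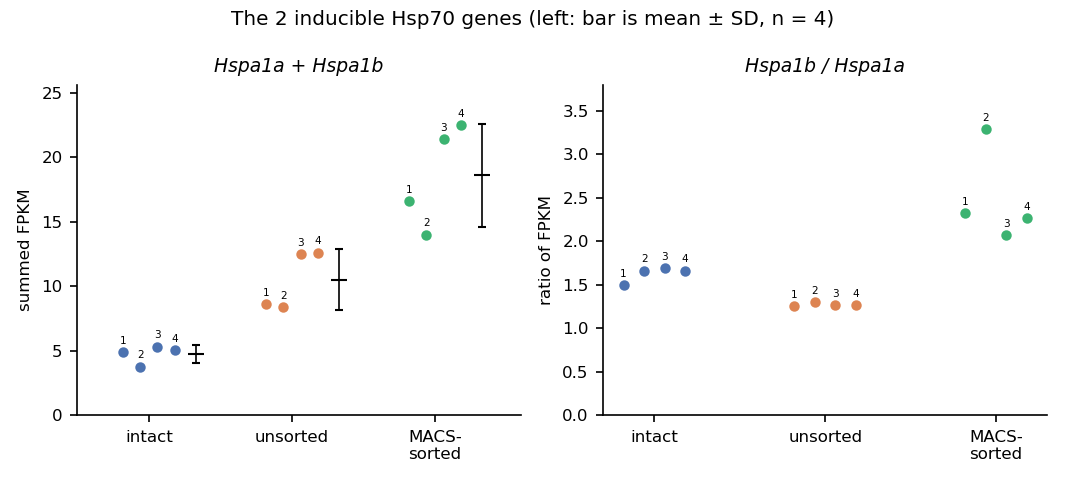
Left, summed FPKM of Hspa1a and Hspa1b in each sample, with bars for the mean ± SD of 4; right, the ratio of Hspa1b to Hspa1a FPKM in each sample (no unit); both axes start at 0. The sum steps up from group to group with no overlap, whereas the ratio is lowest in unsorted samples (1.25 to 1.30) and highest in MACS-sorted samples (2.07 to 3.29).

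Shared sequence also touches other members. The share of stretches of 100 bases found elsewhere was 56.3% for Hspb1, all in the pseudogene Hsp25-ps1, 53.2% for Hsp90aa1, 31.6% for Hspa8 and 26.9% for Hspd1, mostly in pseudogenes, 20.4% for Hspe1, in another gene model, and 0% for Dnajb1, Hsph1 and Hspa5. The loci of Hspe1 and Hspd1 in the table do not overlap. The GENCODE model of Hspd1 reaches further and overlaps that locus of Hspe1 by 96 bases, on the opposite strand.

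Other genes of the same pathways were read from lists. Among 14 other heat-inducible cytosolic genes, 1 was called higher and 0 lower in unsorted against intact samples, beside 4.29% and 2.76% of all genes. That gene was Bag3, a co-chaperone that directs damaged proteins to autophagy, which rose from 59.1 ± 4.78 to 99.3 ± 5.07 FPKM (SD, n = 4), a log2-fold change of 0.75 (limma adjusted p = 0.0013). On the adjusted p alone 3 of the 14 were higher and 0 lower, beside 14.8% and 7.79% of all genes, and the median log2-fold change of the 14 was 0.11. The other two of these, named after their values were seen, were the constitutive Hsp90 gene Hsp90ab1, with a log2-fold change of 0.45 (limma adjusted p = 0.0033), and the co-chaperone Stip1, with 0.24. In MACS-sorted against unsorted samples 0 of the 14 were called higher and 2 lower, beside 8.15% and 12.5% of all genes, with a median of -0.02. Cryab, the small heat shock protein alpha-B crystallin, fell from 99.1 ± 7.62 to 3.91 ± 3.06 FPKM (log2-fold change -4.88, limma adjusted p = 8.6e-06), beside the loss of satellite glia and Schwann cell markers given above. Dnajb4, an Hsp40, fell from 22.9 ± 1.92 to 14.9 ± 1.93 FPKM (log2-fold change -0.62, limma adjusted p = 8.9e-04). In MACS-sorted against intact samples 3 of the 14 were called higher, Bag3, Stip1 and Hsp90ab1, and 2 lower, Cryab and Dnajb4, beside 7.54% and 10.7% of all genes, with a median of 0.06. Hsp90ab1 had means of 683, 934 and 1161 FPKM in intact, unsorted and MACS-sorted samples.

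Of 8 BAG-domain and nucleotide exchange co-chaperones, 1 was called higher in unsorted against intact samples, which was Bag3 again, and 1 in MACS-sorted against unsorted samples, where 4.29% and 8.15% of all genes were called higher. The latter was Bag2, an inhibitor of the Hsp70 ubiquitin ligase, which rose from 9.17 ± 0.254 to 22.3 ± 2.63 FPKM (log2-fold change 1.26, limma adjusted p = 4.6e-06). Against intact samples both Bag2 and Bag3 were called higher in MACS-sorted samples. None of the 8 was called lower in the 3 comparisons. Of 8 small heat shock proteins other than Hspb1, 4 were expressed enough to test, and after sorting Cryab and Hspb6 were called lower against both other groups, with 0 called in unsorted against intact samples. Called lower were 12.5% of all genes against unsorted and 10.7% against intact samples. On the adjusted p alone 1 of the 4 was higher and 2 lower after sorting, against either group. Of all genes 18.8% and 27.7% were so against unsorted samples, and 14.1% and 20.6% against intact samples. The higher gene was Hspb8, named after its values were seen, with means of 148 FPKM in unsorted and 199.9 FPKM in MACS-sorted samples. Its log2-fold change was 0.43 against unsorted (limma adjusted p = 0.0039) and 0.47 against intact samples (0.017). Hspb6 fell from 6.95 ± 0.785 to 1.60 ± 0.755 FPKM in the sort (log2-fold change -2.15, limma adjusted p = 1.8e-04).

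Of 18 genes of the endoplasmic reticulum chaperones and unfolded protein response, 0 were called in unsorted against intact samples, 1 higher and 3 lower in MACS-sorted against unsorted samples, and 1 higher and 0 lower in MACS-sorted against intact samples. The shares of all genes called higher and lower were 8.15% and 12.5% in the second comparison and 7.54% and 10.7% in the third. On the adjusted p alone 3 of the 18 were higher and 2 lower in unsorted against intact samples, beside 14.8% and 7.79% of all genes. By that measure 5 were higher and 3 lower in MACS-sorted against unsorted samples, beside 18.8% and 27.7%. Against intact samples 5 were higher and 1 lower, beside 14.1% and 20.6%. The median log2-fold change of the 18 was 0.08 in the second comparison and 0.15 in the third. The gene called higher in both was Ddit3, the stress transcription factor CHOP, which rose from 12.9 ± 1.19 to 26.6 ± 5.83 FPKM in the sort (log2-fold change 1.02, limma adjusted p = 2.9e-04). Its intact mean was 17.3 FPKM, so that it was lower in unsorted than in intact samples (-0.41, limma adjusted p = 0.027), with no overlap. Against intact samples the log2-fold change of the MACS-sorted samples was 0.60. The genes called lower were the disulfide isomerase Pdia4 (24.5 to 16.7 FPKM, log2-fold change -0.55, limma adjusted p = 1.1e-04), the co-chaperone Dnajb9 (27.2 to 18.6 FPKM, -0.54, adjusted p = 0.0019) and Atf6, an endoplasmic reticulum stress sensor named after its values were seen. With median-ratio size factors or quantile normalization 0 of the 18 were called lower. None of the 8 tested mitochondrial chaperones and proteases, the 8 subunits of the cytosolic chaperonin TRiC or the 4 tested of 6 heat shock factors and their partners was called in any comparison. On the adjusted p alone 1 of the 8 mitochondrial genes was higher and 0 lower in unsorted against intact samples, beside 14.8% and 7.79% of all genes. That gene was Dnaja3, with a log2-fold change of 0.28. In MACS-sorted against unsorted samples 1 was higher and 3 lower, beside 18.8% and 27.7%, and Dnaja3 was lower at -0.27. Of the 4 heat shock factors and partners, 1, 1 and 2 were higher in the 3 comparisons and 0 lower. Of all genes 14.8%, 18.8% and 14.1% were higher.

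**Figure D4:**
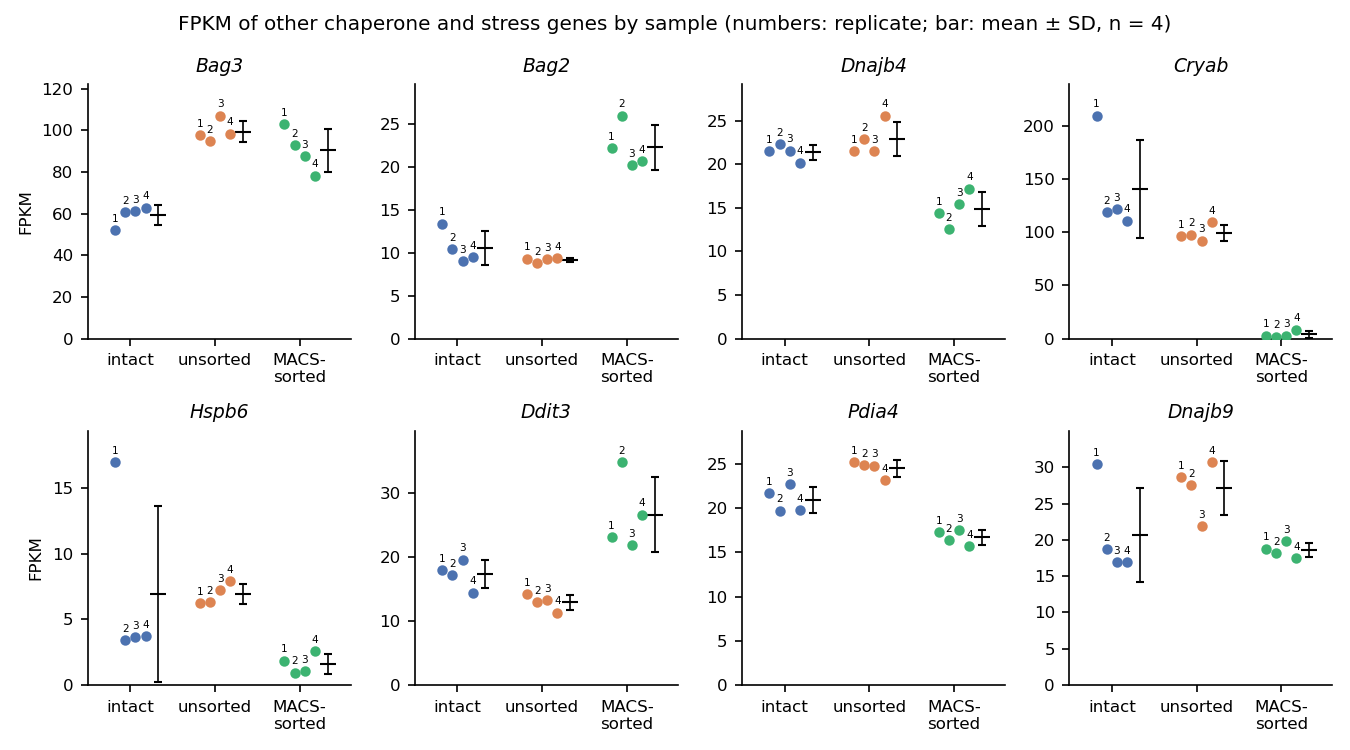
FPKM (linear axis from 0, with a separate scale in each panel) of 8 other chaperone and stress genes in intact, unsorted and MACS-sorted samples; points are samples, numbered by replicate, and bars give the mean ± SD of 4. Bag3 is higher in both dissociated groups, Bag2 and Ddit3 are highest in MACS-sorted samples, and Cryab is at 99.1 FPKM in unsorted and 3.91 FPKM in MACS-sorted samples on average.

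For 4 of the genes, the genes with the most similar profile were sought among the 8263 genes whose mean reached 5 FPKM, as the smallest root mean square difference of centred log2 values over the 12 samples. The nearest to Hspa1a were Dusp1, an immediate early phosphatase gene, at 0.322, Ppp1r15a, a stress-induced phosphatase subunit gene, at 0.355, and Gpr116 at 0.392, so that Hspa1b was not among them. Dusp1 had means of 9.83, 30.3 and 23.7 FPKM in intact, unsorted and MACS-sorted samples, and Ppp1r15a had 8.88, 14.9 and 16.7 FPKM. The nearest to Hspb1 were Cbx6 at 0.121, G6pc3 at 0.130 and Ncam1 at 0.139. The nearest to Hspa8 were Ddx39b at 0.046, the Hsp90 co-chaperone Ahsa1 at 0.053 and Hspa5 at 0.056, and those to Hspa5 were Cyb5b at 0.053, Wipi2 at 0.054 and Dctn5 at 0.055. The values were not scaled, so genes that varied little, such as Hspa8 and Hspa5, lie near any other gene that varied little.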

How the data were processed

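RNA from 12 samples was poly(A)-selected, made into directional libraries and sequenced as 100-base reads. The authors aligned reads to mm10 with TopHat2, merged them with SAMtools and deposited FPKM per gene from Cufflinks 2.1.1. These values are not counts, and depth was estimated from their steps. Here log2(FPKM + 0.1) was tested with limma 3.58.1 in R 4.3.3, two-sided with an intensity trend, on genes whose mean over the 8 samples compared reached 1 FPKM, with Benjamini-Hochberg adjustment over all of them. Fold changes on this scale understate those of low genes. The 3 criteria follow the study's, which used CuffDiff. The fit was first tested on simulated data. All columns were mapped to samples, leaving 0 unmapped. The members and lists were chosen with earlier results of these data known. Named from the lists were, of the genes called in each of the first 2 comparisons, up to 2 with the largest positive and 2 with the largest negative change per list, and by profile the 3 genes nearest to Hspa1a, Hspb1, Hspa8 and Hspa5. Loci and overlaps came from the table and GENCODE vM21, promoters from RefSeq. Alternatives were other pseudocounts, filters, scalings, thresholds, a replicate block, all 12 samples in 1 fit, unsorted replicates 1 and 2 averaged and single replicates left out.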

Additional observations from a re-analysis of the deposited data

Results flagged for a closer look

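Each group of 4 samples was searched for a value far from the other 3, for the 10 genes and the 8 other genes named by rule. Of the 54 groups, 8 held one, where chance flags about 1 in 20, and 5 of the 8 were intact replicate 1. That sample had 60.9 FPKM of Hsph1 (76.6 to 77.9 in the other intact samples), 53.8 FPKM of Hspe1 (21.8 to 26.1), 210.1 FPKM of Cryab (111 to 122), 30.4 FPKM of Dnajb9 (16.9 to 18.7) and 17.0 FPKM of Hspb6 (3.43 to 3.74), beside 3023 FPKM of summed skeletal muscle markers, whose part in these values was not tested. Intact replicate 2 had 1.41 FPKM of Hspa1a, against 1.89 to 1.97 in the others. MACS-sorted replicate 2 had 247 FPKM of Hspa8, against 199 to 202. MACS-sorted replicate 4 had 8.46 FPKM of Cryab, against 1.82 to 2.69, and also had the highest summed satellite glia markers of its group, at 77.6 FPKM.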

How the results depend on the processing

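In unsorted against intact samples, 1 of the 10 genes was called higher with a filter of at least 5 FPKM, where 484 of all genes were, and 1 with a log2 ratio beyond 1, where 42 were, beside 531 as reported. The count was 1 to 2 with 1 replicate left out, the lower count without unsorted replicate 1. In MACS-sorted against intact samples, 1 was called higher without the MACS-sorted samples richest in haemoglobin, replicates 3 and 4, where 1012 of all genes were, beside 922 as reported, an alternative chosen after seeing the data. Changes near 0 changed sign. In MACS-sorted against unsorted samples Hsph1 was -0.02 and Hspa8 -0.03 without MACS-sorted replicate 2, the lowest of ranges up to 0.08 with 1 replicate left out, and Hspa1a was -0.17 and Hspd1 0.05 without the samples rich in haemoglobin. In MACS-sorted against intact samples Hspd1 was 0.05 with median-ratio size factors, 0.04 with haemoglobin genes removed, 0.13 without the samples rich in haemoglobin, and -0.07 to 0.05 with 1 replicate left out, at or above 0 without MACS-sorted replicate 3 (0.03) or 4 (0.05) or intact replicate 3 (0.00) or 4 (0.01). The cause was not tested. With a limit of 1 FPKM in the higher group Hspa1a was also called in unsorted against intact samples, at 1.30.

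Scaling moved the balance of all calls after sorting: 981 higher and 1505 lower in MACS-sorted against unsorted samples became 1387 and 1281 with quantile normalization, which moved the median of all genes from -0.04 to 0.10. Same-numbered replicates were not paired, as the labels do not say that replicate numbers pair samples. Their deviations from the group means correlated at -0.185 to 0.088 in 12 pairs. Differently numbered samples reached -0.268 and 0.245, so these correlations cannot show whether samples were paired. With a replicate block the members called higher were 2, 1 and 3 in the 3 comparisons, with 0 lower, as without it, and 541, 991 and 915 of all genes were called higher. Hspa1a had an estimated 72 to 334 fragments per sample and a coefficient of variation of 14.9% to 31.9% within groups.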
